A study of Mus musculus with 4 samples.

Results

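The genes described here are 10 genes of platelet-derived growth factor (PDGF) signaling and of the perivascular and interstitial cells that respond to it in the lung, out of 19938 genes with a value. They comprise the ligands *Pdgfa*, *Pdgfb*, *Pdgfc* and *Pdgfd*, the receptors *Pdgfra* and *Pdgfrb*, the pericyte genes *Cspg4*, *Rgs5* and *Higd1b*, and *Tcf21*, a transcription factor of lung fibroblast precursors. Each gene was taken through the probe set that the array annotation assigns to its symbol alone, and all 10 had a single probe set of this kind, so no choice between probe sets was needed. RNA of whole embryonic lung, collected at day 18.5 of gestation (E18.5) from C57BL/6 embryos, was measured on 4 Affymetrix arrays, 2 labelled wild type (WT, +/+) and 2 labelled *Hmga2* knockout (KO, -/-). HMGA2 is a chromatin protein that binds AT-rich DNA, and the comparison asked which transcripts of the embryonic lung differ when it is missing. The knockout was carried by every cell of the embryo in a line supplied as heterozygotes, so it was not restricted to a lung cell type. The titles of both WT arrays carry the same WT number and differ only in the biological replicate, while the KO arrays carry KO numbers of their own. Nothing in the labels says that the lungs of a group came from separate litters, so the p-values measure only the spread between these arrays.

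PDGF ligands are dimers that bind a pair of receptor tyrosine kinases. PDGF-A and PDGF-C act mainly through PDGFRA and PDGF-D mainly through PDGFRB, whereas PDGF-B binds either receptor. In the lung, PDGF-A from the epithelium is needed for the PDGFRA-positive fibroblasts that form the alveolar septa, and PDGF-B from endothelium recruits PDGFRB-positive pericytes, the contractile cells that wrap capillaries. Lipofibroblasts are interstitial cells that store neutral lipid beside the alveolar epithelium, and *Tcf21* and *Pdgfra* are transcribed in their precursors.

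*Hmga2* itself had log2 values of 9.35 and 9.59 on the WT arrays and 9.65 and 9.39 on the arrays labelled KO, a difference of 0.05 ± 0.16 (SE, limma adjusted p = 0.892) whose sign turned under cyclic loess scaling (−0.0058). All values are log2 intensities that RMA had normalized across arrays, and each difference is the KO mean minus the WT mean with its standard error, 2 arrays per group. The groups overlapped for this probe set. No source used here places the probes relative to the deletion, so this value does not check the labels, and the groups are named below as they were labelled. *Sftpc*, which encodes a surfactant protein made by distal lung epithelium, lay between 13.98 and 14.13 on all 4 arrays. WT replicate 1 was the array least like the rest. Its correlation with WT replicate 2 was 0.985 across probe sets (Pearson), while WT replicate 2 correlated at 0.994 and 0.992 with KO replicates 1 and 2, and the KO arrays correlated at 0.997 with each other. The median absolute gap between replicates over all genes was 0.20 in WT and 0.12 in KO. With its sign, replicate 2 minus replicate 1, the median gap was 0.06 in WT and −0.10 in KO. The array medians over probe sets were 7.99 and 8.02 in WT and 8.02 and 7.91 in KO. The gaps of single genes below therefore include a shift shared by many genes, besides their own spread.

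No gene among the 10 passed an adjusted p of 0.05 (Benjamini-Hochberg over all genes) in the limma fit, where 156 of 19938 genes (0.782%) did, 0.0802% of all genes higher and 0.702% lower in the arrays labelled KO. At an unadjusted p under 0.05 there were 2 with a higher mean in the arrays labelled KO (*Pdgfc* and *Rgs5*) and 3 with a lower mean (*Pdgfb*, *Pdgfd* and *Higd1b*), beside 14.5% of all genes in either direction, 5.88% higher and 8.58% lower. A difference past 1.2-fold was found for 6 genes, those 5 and *Cspg4*, with 2 higher and 4 lower means, beside 30.5% of all genes (13.4% higher and 17.1% lower). The values of the groups did not overlap for 8 of the 10, with 2 higher and 6 lower in the arrays labelled KO, beside 49.4% of all genes without overlap (17.6% higher and 31.8% lower). By means alone, 3 of the 10 were higher and 7 lower, beside 8206 higher and 11732 lower of all 19938 genes. Those totals, and the shares above for an unadjusted p under 0.05 and for no overlap, are also the background for the counts below. The median difference of the 10 genes was −0.17 on the log2 scale, against −0.05 over all genes, and it ranged from −0.25 to −0.08 when a WT array was left out. With 2 arrays in each group an exact permutation test of a single gene cannot give a two-sided p below 0.333, so each p below rests on the spread that limma shares across genes. Because lung was measured in bulk, fewer cells of a type and less RNA per cell cannot be told apart in any of these values.

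**Figure D1:**
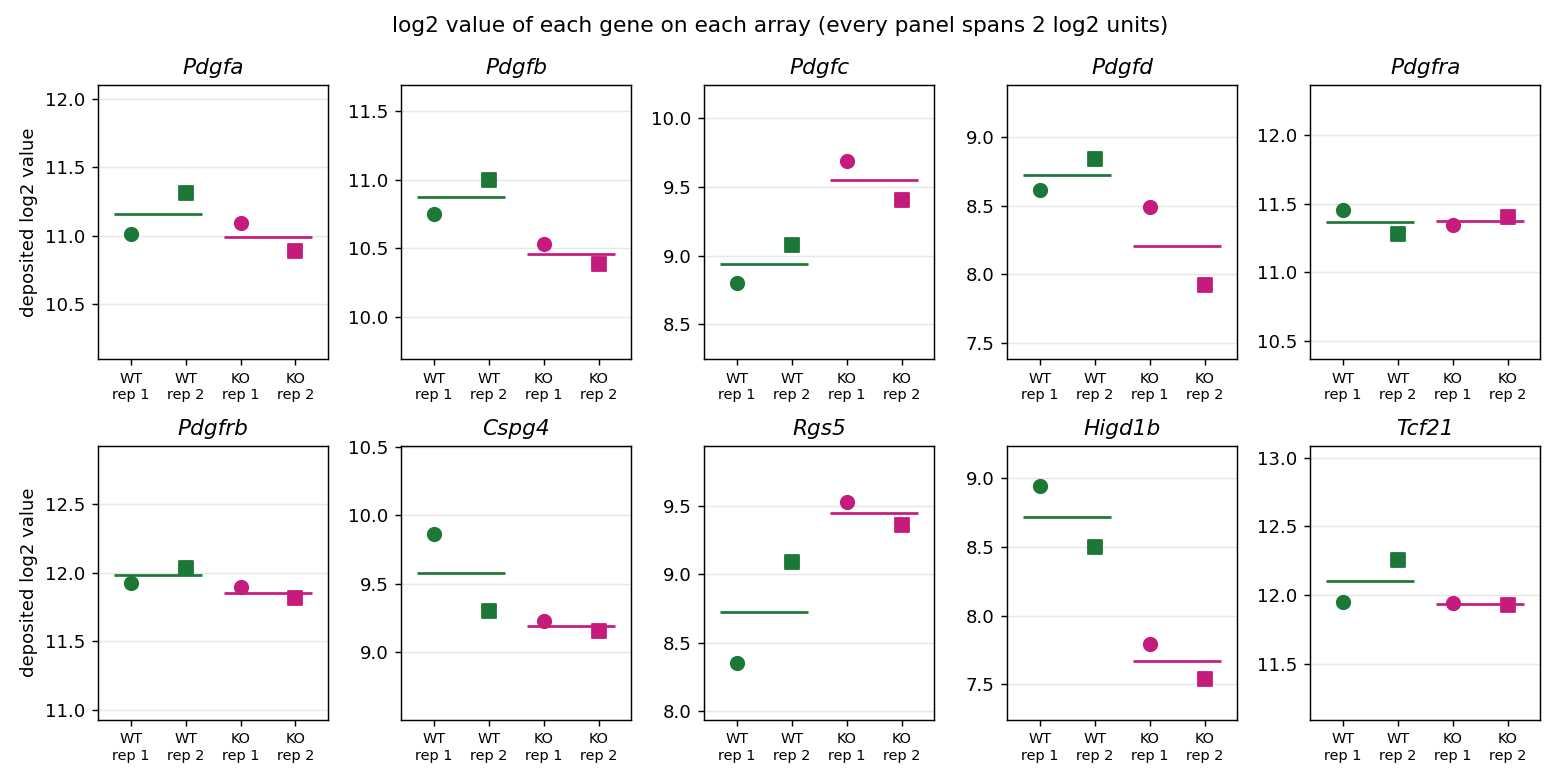
Log2 expression values of the 10 genes on each of the 4 arrays, 1 panel per gene and 1 point per array, with a horizontal line at each group mean and a vertical axis of 2 log2 units in each panel. The groups are separate without overlap for every gene except *Pdgfa* and *Pdgfra*, and the WT points lie further apart than the KO points in 8 of the 10 genes.

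Among the ligands, *Pdgfc* had a higher mean in the arrays labelled KO and *Pdgfb* and *Pdgfd* lower means, and *Pdgfa* overlapped between groups. *Pdgfc* encodes a ligand that is secreted with a CUB domain and becomes active after that domain is cut off. Its log2 values were 8.80 and 9.08 in WT and 9.69 and 9.41 in the arrays labelled KO. Both KO values were above both WT values, and the difference of 0.61 ± 0.17 (SE, 95% interval 0.21 to 1.01), a ratio of 1.53, was wider than the gap within either group. Its adjusted p was 0.175, and leaving out each array in turn gave 0.47 to 0.75. *Pdgfd*, which encodes the other ligand with a CUB domain, went the opposite way, with 8.61 and 8.84 in WT against 8.49 and 7.92 in the arrays labelled KO. The groups did not overlap, but WT replicate 1 and KO replicate 1 were only slightly apart and the KO arrays differed from each other by 0.57, more than the group difference of −0.52 ± 0.21 (95% interval −1.02 to −0.01, adjusted p = 0.337). Without KO replicate 1 the difference was −0.80, and without KO replicate 2 it was −0.23.

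*Pdgfb*, the ligand that endothelium makes for pericytes, read 10.75 and 11.00 in WT and 10.53 and 10.38 in the arrays labelled KO. Both KO values were the lower ones, and the difference of −0.42 ± 0.15 (95% interval −0.77 to −0.07), a ratio of 0.748, exceeded the gap between the WT arrays. The adjusted p was 0.275, and leaving out each array in turn gave −0.54 to −0.30. PDGF-B is also stored in platelets and made by macrophages, so the markers of those cells and of endothelium are given beside it. Of 7 endothelial markers 6 had lower means, and their mean log2 value was 11.87 and 11.97 in WT and 11.65 and 11.59 in the arrays labelled KO. None of the 7 passed the test and 3, all lower, had an unadjusted p under 0.05, the smallest adjusted p being that of *Cldn5*, a protein of endothelial tight junctions (−0.72 ± 0.14, adjusted p = 0.0873, but 0.0454 under cyclic loess and 0.0489 with replicate numbers as a block crossed between groups), followed by *Kdr*, the VEGF receptor of endothelium (−0.39 ± 0.12). All 4 measured megakaryocyte and platelet markers had lower means, though *Pf4* differed by only −0.0086 and overlapped between groups. The mean log2 values of the 4 also overlapped, at 8.71 and 9.18 in WT and 8.74 and 8.50 in the arrays labelled KO. None of the 4 passed the test and 2 had an unadjusted p under 0.05. All 6 macrophage markers were lower without overlap, beside 31.8% of all genes. Their mean log2 values were 9.64 and 9.78 in WT against 9.10 and 8.93 in the arrays labelled KO. The differences ran from −1.76 to −0.27 with a median of −0.45, so the means lean on the largest of them. That was *Lyz2*, the lysozyme of macrophages and of alveolar type II cells, which fell by 1.76 ± 0.14 (adjusted p = 0.00803). It was the only one of the 6 to pass the test. *Ptprc*, the CD45 antigen of leukocytes in general, was at −0.91. The part of these cells in the lower *Pdgfb* value was not tested.

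*Pdgfa*, which the epithelium makes, had log2 values of 11.01 and 11.31 in WT and 11.09 and 10.88 in the arrays labelled KO. KO replicate 1 lay between the WT arrays, and the difference was −0.17 ± 0.16 (95% interval −0.56 to 0.22, adjusted p = 0.627). It changed with the array left out, to −0.02 without WT replicate 2 and −0.32 without WT replicate 1. Without KO replicate 2 it was −0.07, and without KO replicate 1 it was −0.28. The 7 lung epithelium markers had a median difference of 0.02, with 4 higher and 3 lower means. None of them passed the test, at an unadjusted p under 0.05 there was 1 in each direction, and the smallest p-values were those of *Sftpb*, a surfactant protein (−0.56 ± 0.13, adjusted p = 0.124), and *Epcam*, an epithelial adhesion molecule (0.69 ± 0.19, adjusted p = 0.178, and 0.44 without WT replicate 1). With the eBayes trend and robust fitting the adjusted p of *Sftpb* was 0.0453.

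The receptors showed the smallest differences of the set. *Pdgfra*, the receptor of the alveolar fibroblast lineages, read 11.45 and 11.28 in WT and 11.35 and 11.40 in the arrays labelled KO, with both KO values between the WT values. Its difference was 0.0072 ± 0.13 (adjusted p = 0.984), a sign that turned under cyclic loess scaling (−0.04), without WT replicate 2 (−0.08) and without KO replicate 2 (−0.019), so *Pdgfra* has no direction in these data. The 95% interval ran from −0.31 to 0.33. *Pdgfrb*, the receptor of pericytes and vascular smooth muscle, read 11.93 and 12.04 in WT and 11.90 and 11.82 in the arrays labelled KO. The groups were separate by a narrow margin, and the difference of −0.13 ± 0.13 (95% interval −0.44 to 0.18, adjusted p = 0.653) lay under 1.2-fold. A smaller absolute difference than that of *Pdgfrb* was found for 39.7% of all genes, and than that of *Pdgfra* for 2.44%.

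**Figure D2:**
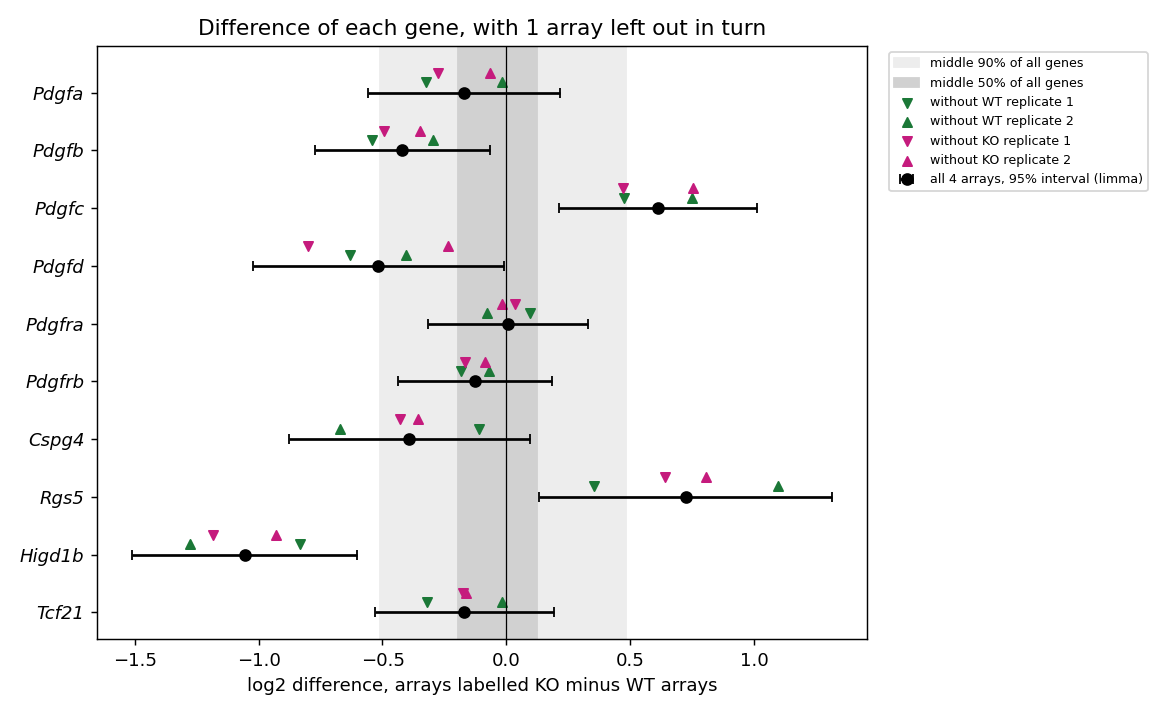
Difference of the mean log2 values (KO minus WT) for each gene with its 95% interval, and the differences that remained after leaving out 1 array at a time. The intervals of *Pdgfb*, *Pdgfc*, *Pdgfd*, *Rgs5* and *Higd1b* do not reach 0, and every left-out value lies on the same side of 0 as its main value except for *Pdgfra*.

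The pericyte genes did not move as a block. Means of *Higd1b* and *Cspg4* were lower in the arrays labelled KO and that of *Rgs5* was higher. *Higd1b*, a mitochondrial membrane protein gene used to mark pericytes of the lung, had the smallest p of the 10. Its log2 values were 8.94 and 8.50 in WT and 7.79 and 7.54 in the arrays labelled KO. The lowest WT value exceeded the highest KO value by more than either within-group gap, and the difference was −1.06 ± 0.19 (95% interval −1.51 to −0.60), a ratio of 0.481. Its adjusted p of 0.0758 lay above the threshold, at rank 290 of all genes by p. This call depended on the processing, because the adjusted p was 0.0369 when the dimmest 40% of genes were left out and 0.0112 with the replicate number as a block, but 0.0533 with the numbers crossed between groups. The numbers name the replicates and do not show that arrays of different groups share a litter or a day. Leaving out each array in turn gave −1.28 to −0.83.

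*Cspg4* encodes the NG2 proteoglycan of the pericyte surface and read 9.86 and 9.30 in WT against 9.23 and 9.15 in the arrays labelled KO. WT replicate 1 was the high value, and WT replicate 2 lay close to the KO arrays. The difference was −0.39 ± 0.20 (95% interval −0.88 to 0.09, adjusted p = 0.421), and it came to −0.11 without WT replicate 1 and −0.67 without WT replicate 2. *Rgs5*, a regulator of G protein signaling in pericytes and in vascular smooth muscle, read 8.35 and 9.09 in WT and 9.52 and 9.36 in the arrays labelled KO. Here WT replicate 1 was the low value, and the gap of 0.74 between the WT arrays was slightly wider than the difference of 0.72 ± 0.25 (95% interval 0.13 to 1.31, adjusted p = 0.260), a ratio of 1.65. Without WT replicate 1 the difference was 0.35 and without WT replicate 2 it was 1.09. Among 6 smooth muscle markers 5 had higher means in the arrays labelled KO and none passed the test or had an unadjusted p under 0.05, with mean log2 values of 9.73 and 9.96 in WT and 10.09 and 9.95 in KO. *Cnn1*, a calponin of smooth muscle, was at 0.34 ± 0.16, which became 0.16 without KO replicate 1 and 0.52 without KO replicate 2. *Actg2*, an enteric smooth muscle actin, overlapped between groups at 0.52 ± 0.29, of which 0.07 remained without WT replicate 1. All 6 cardiac muscle markers were higher without overlap, beside 17.6% of all genes. Their mean log2 values were 9.52 and 9.46 in WT against 10.44 and 10.26 in the arrays labelled KO. Of these markers 1, *Nppa* (atrial natriuretic peptide), passed the test and rose by 1.78 ± 0.17 (adjusted p = 0.0172). The part of muscle in the *Rgs5* value was not tested.

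*Tcf21* encodes a basic helix-loop-helix factor that lung mesenchyme needs and that marks the precursors of lipofibroblasts. Its log2 values were 11.95 and 12.25 in WT and 11.94 and 11.92 in the arrays labelled KO, so WT replicate 2 alone stood above the other 3 arrays. The difference was −0.17 ± 0.15 (95% interval −0.53 to 0.19, adjusted p = 0.609), and without WT replicate 2 it was −0.02. Mesothelium also transcribes *Tcf21*, and its 4 markers were mixed. *Msln* (mesothelin) fell by 1.42 ± 0.18 (adjusted p = 0.0303), and *Upk1b* was at −0.58 ± 0.13 (adjusted p = 0.121). *Upk3b* (−0.05) and *Wt1* (0.07) overlapped between groups. The part of mesothelium in the *Tcf21* value was not tested.

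Set against the spread between replicates, 4 of the 10 genes (*Higd1b*, *Pdgfc*, *Pdgfb* and *Pdgfrb*) had a group difference above the wider of their within-group gaps, beside 33.1% of all genes. The WT gap was the wider one for 8 of the 10, all but *Pdgfc* and *Pdgfd*, as it was for 67.2% of all genes. WT replicate 2 was above WT replicate 1 in 7 of the 10, with *Pdgfra*, *Cspg4* and *Higd1b* the other way, and KO replicate 2 was below KO replicate 1 in 9, with *Pdgfra* the exception. Over all genes these shares were 58.3% and 78.3%. The WT arrays lay furthest apart for *Rgs5* (0.74), *Cspg4* (0.56) and *Higd1b* (0.44), so these differences shifted most, in log2 units, with the WT array used. As a share of its own size the difference of *Higd1b* shifted little, while those of *Pdgfa* and *Tcf21* nearly vanished without WT replicate 2.

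**Figure D3:**
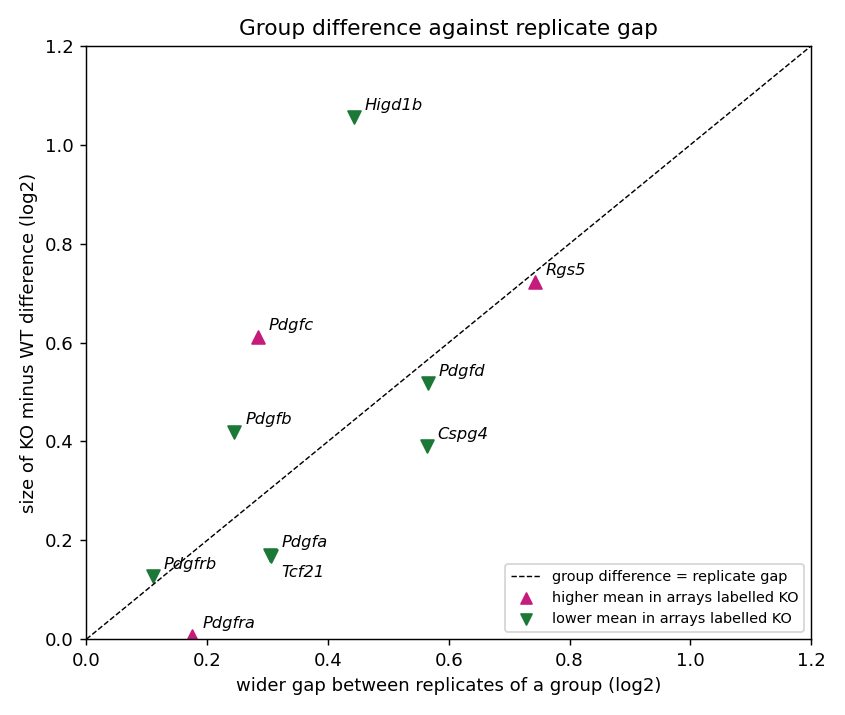
Size of the KO minus WT difference (vertical axis, log2) against the wider of the gaps between replicates (horizontal axis, log2), 1 triangle per gene, pointing up where the mean was higher in the arrays labelled KO and down where it was lower. *Higd1b*, *Pdgfc*, *Pdgfb* and *Pdgfrb* lie above the dashed line of equality, and *Rgs5*, *Pdgfd*, *Cspg4*, *Pdgfa*, *Tcf21* and *Pdgfra* below it.

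Promoter sequence was taken from RefSeq (GRCm38.p6) with 1 chromosome left out, for the 7 genes with an entry in what remained. It covered the 250 bases before each annotated start, in the direction of transcription. The promoters shown are those of the genes past 1.2-fold with an entry, *Pdgfc* and *Rgs5* with higher means and *Pdgfd* and *Cspg4* with lower means. Capitals mark matches on either strand to the E-box CANNTG, read by basic helix-loop-helix factors such as TCF21, to the GC box GGGCGG, to the TATA motif TATAAA, and to AATT, a short AT-rich run of the kind that the AT-hooks of HMGA2 contact.
Pdgfc promoter, chr3:81036166-81036415, + strand: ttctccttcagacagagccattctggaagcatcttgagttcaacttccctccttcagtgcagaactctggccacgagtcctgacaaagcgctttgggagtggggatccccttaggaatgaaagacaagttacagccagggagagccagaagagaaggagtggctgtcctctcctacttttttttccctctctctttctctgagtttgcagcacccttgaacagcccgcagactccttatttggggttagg
Rgs5 promoter, chr1:169655251-169655500, + strand: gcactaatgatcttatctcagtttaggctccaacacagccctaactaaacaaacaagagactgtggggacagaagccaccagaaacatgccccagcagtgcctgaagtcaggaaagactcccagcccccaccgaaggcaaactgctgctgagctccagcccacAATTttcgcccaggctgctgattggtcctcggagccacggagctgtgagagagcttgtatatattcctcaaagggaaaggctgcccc
Pdgfd promoter, chr9:6168236-6168485, + strand: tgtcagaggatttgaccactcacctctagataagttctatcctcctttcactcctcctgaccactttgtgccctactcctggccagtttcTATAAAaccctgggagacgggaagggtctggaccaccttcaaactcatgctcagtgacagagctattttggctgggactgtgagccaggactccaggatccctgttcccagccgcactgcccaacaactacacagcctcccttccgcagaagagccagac
Cspg4 promoter, chr9:56864854-56865103, + strand: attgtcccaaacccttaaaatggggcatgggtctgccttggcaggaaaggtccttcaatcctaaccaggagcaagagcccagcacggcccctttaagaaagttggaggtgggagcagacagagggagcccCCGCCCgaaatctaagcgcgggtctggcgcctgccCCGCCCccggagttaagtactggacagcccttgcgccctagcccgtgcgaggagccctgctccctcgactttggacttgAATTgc
The *Pdgfc* window held none of these letters, the *Rgs5* window 1 AATT, the *Pdgfd* window 1 TATAAA and the *Cspg4* window 2 GC boxes and 1 AATT. Of 32851 promoter windows of this length, with the same chromosome left out, 66.2% held an E-box, 32.7% a GC box, 12.4% TATAAA and 47.1% AATT. GC content was 50.8% for *Pdgfc*, 53.6% for *Rgs5* and for *Pdgfd*, and 60.4% for *Cspg4*, beside a median of 52.4%. Among all 7 genes the single E-box was in *Pdgfra*. These matches describe letters in the windows only, and no binding was measured here.

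The processing and relay of the PDGF signal was followed over 24 genes, which include the proteases that free the CUB-domain ligands, the co-receptors, and the kinases and adaptors below the receptors. No gene of this list passed the test. Means were higher for 10 and lower for 14, beside 8206 and 11732 over all genes, and the median was −0.03. That median had no stable sign, since it was 0.02 without WT replicate 2, −0.11 without WT replicate 1 and −0.09 under cyclic loess. At an unadjusted p under 0.05 there were 3, all lower. They were *Stat3*, a transcription factor activated by cytokine receptors and by PDGF receptors (−0.48 ± 0.13, adjusted p = 0.166), *Pik3cb*, a catalytic subunit of phosphoinositide 3-kinase (−0.66 ± 0.18, adjusted p = 0.177), and *Pik3r1*, its regulatory subunit that docks on the activated receptor (−0.49 ± 0.14, adjusted p = 0.195). *Nrp1*, a co-receptor, followed at −0.28 ± 0.13 (adjusted p = 0.379). *Lrp1*, an endocytic co-receptor of PDGFRB, was singled out after its values were seen, because it showed the weight of WT replicate 1. It read 12.16 and 10.91 in WT and 10.72 and 10.75 in the arrays labelled KO, a difference of −0.81 that came to −0.18 without WT replicate 1.

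Other genes transcribed in pericytes were likewise mixed in direction, as were *Higd1b*, *Cspg4* and *Rgs5*. Of 16 such genes none passed the test (at an unadjusted p under 0.05, 1 was higher and 3 were lower). Means were higher for 5 and lower for 11, beside 8206 and 11732 over all genes. The median was −0.11, which was 0.05 against WT replicate 1 alone and −0.22 against WT replicate 2 alone. *Trpc6*, a cation channel, came closest to the threshold, with 9.73 and 9.43 in WT and 8.64 and 8.35 in the arrays labelled KO (−1.09 ± 0.17, adjusted p = 0.0573). *Lamc3*, a laminin chain, was at −0.51 ± 0.13 (adjusted p = 0.157) and *Anpep*, the aminopeptidase CD13, at −0.50 ± 0.13 (adjusted p = 0.161). *Heyl*, a Notch target, was at 0.66 ± 0.22 (adjusted p = 0.245), with 0.35 left without WT replicate 1.

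For lipofibroblasts, 13 further genes were measured, of which 4 had higher and 9 lower means (8206 and 11732 over all genes), with a median of −0.23. With 1 array left out that median ran from −0.32 to −0.17. At an unadjusted p under 0.05, 2 were higher and 3 were lower. *Fabp5*, a fatty acid binding protein, was the only one that passed the test. It read 11.75 and 11.86 in WT and 10.52 and 10.41 in the arrays labelled KO and fell by 1.34 ± 0.13 (adjusted p = 0.0172). *Lpl*, the lipase that releases fatty acids from lipoproteins, read 10.10 and 9.90 against 9.14 and 8.86 (95% interval of the difference −1.38 to −0.62, adjusted p = 0.0577). Going the other way were *Angptl4*, an inhibitor of that lipase (0.71 ± 0.18, adjusted p = 0.162), and *Pth1r*, the receptor for the parathyroid hormone-related protein of the epithelium (0.67 ± 0.16, adjusted p = 0.133). *Fabp5* and *Lpl* are also transcribed in macrophages, whose 6 markers were lower as given above, and the part of macrophages was not tested.

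Of 11 further genes of alveolar fibroblasts, the *Tcf21* and *Pdgfra* lineage, 10 had a lower and 1 a higher mean in the KO-labelled arrays. Their median was −0.23, and it ran from −0.26 to −0.18 with 1 array left out. At an unadjusted p under 0.05 there were 4, all lower. The single gene to pass the test was *Inmt*, an N-methyltransferase, with 10.12 and 9.44 in WT and 6.71 and 6.53 in the arrays labelled KO, so that it fell by 3.16 ± 0.23 on the log2 scale (adjusted p = 0.00621). *Limch1*, an actin-binding protein (−0.73 ± 0.17, adjusted p = 0.126), *Ces1d*, a carboxylesterase with close paralogs that its probes may share (−0.57 ± 0.16, adjusted p = 0.177), and *Col13a1*, a transmembrane collagen (−0.58 ± 0.17, adjusted p = 0.195), had lower values on both arrays labelled KO, though *Col13a1* came to −0.39 without WT replicate 1. None of 10 alveolar myofibroblast genes, which mark the cells that PDGF-A calls to the septa, passed the test (at an unadjusted p under 0.05, 1 was higher and 2 were lower), with 4 higher and 6 lower means and a median of −0.08. With 1 array left out the median ran from −0.16 (without KO replicate 1) to 0.0097 (without WT replicate 2), and it was −0.13 under cyclic loess. In that list *Eln*, which encodes elastin, was at −0.47 ± 0.13 (adjusted p = 0.170), *Hhip*, a hedgehog-binding protein, at −0.41 ± 0.14 (adjusted p = 0.243), *Lgr6*, an R-spondin receptor, at 0.47 ± 0.16 (adjusted p = 0.260) and *Fbln5*, a fibulin of elastic fibers, at −0.34 ± 0.15 (adjusted p = 0.378). Without WT replicate 2 the difference of *Fbln5* was −0.18, and without WT replicate 1 that of *Lgr6* was 0.30. The 5 measured markers of dividing cells were all higher without overlap, beside 17.6% of all genes. Their mean log2 values were 10.61 and 11.28 in WT and 11.85 and 11.79 in the arrays labelled KO. None passed the test and all 5 had an unadjusted p under 0.05, beside 5.88% of all genes that were higher at that limit. *Mki67*, a nuclear protein of cycling cells, was at 0.71 ± 0.13 (adjusted p = 0.0780) and *Top2a*, a topoisomerase of the same cells, at 0.94 ± 0.22 (adjusted p = 0.137). *Top2a* came to 0.50 as the mean of its 2 probe sets and to 0.61 without WT replicate 1. Its adjusted p was 0.0326 with the replicate block, and that of *Mki67* was 0.0470 under cyclic loess and 0.0490 with the crossed block. The part of cell division in these lists was not tested. The calls of *Fabp5*, *Inmt*, *Lyz2*, *Nppa* and *Msln* were lost when either array labelled KO was left out (adjusted p of *Inmt* 0.275 and 0.365, of *Fabp5* 0.490 and 0.763), a setting in which the lone array is assumed to vary like the WT pair.

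**Figure D4:**
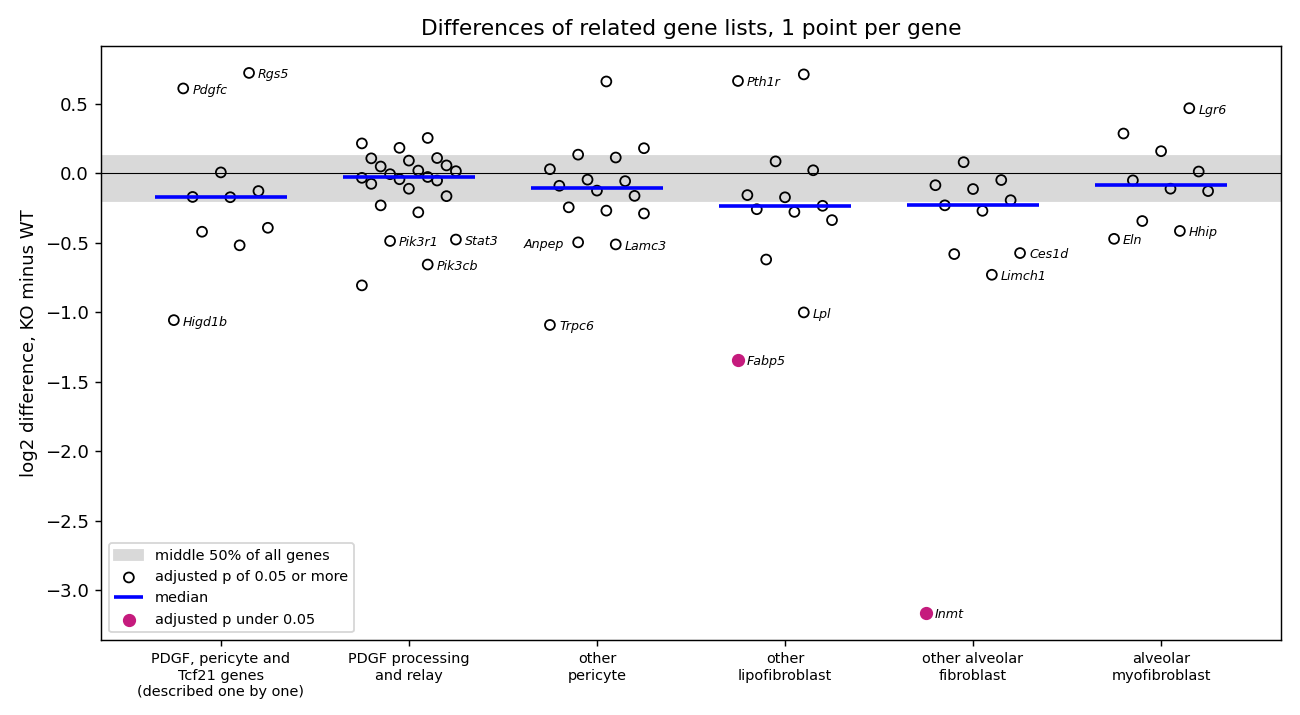
KO minus WT differences (log2) of the 10 genes and of the 5 related gene lists, 1 circle per gene, with a line at each list's median and a grey band over the middle 50% of all genes. Filled circles mark the genes with an adjusted p under 0.05, *Fabp5* and *Inmt*, and the labels give the 3 genes with the smallest p in each column.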

How the data were processed

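Total RNA of E18.5 mouse lungs was hybridized to Affymetrix arrays, 2 per group. The deposited values were log2 intensities that the authors made with RMA in the Affymetrix Expression Console, whose versions are not given in the sources used here, nor is a genome build. Of 30177 probe sets, 21789 had a single gene symbol in the platform annotation, 1621 had several and 6767 had none listed here. Where a gene had several probe sets the one with the highest mean of the 4 arrays was kept, which gave 19938 genes, and 19856 of these matched RefSeq by gene number with the same symbol. RMA gives no zero and no detection call was used, so a dim gene is not shown to be absent. The number of arrays limits the precision.

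KO minus WT was fitted on the log2 values with limma 3.58.1 (lmFit and eBayes, R 4.3.3) without covariates, with Benjamini-Hochberg adjustment over all genes and a threshold of 0.05. The fit had 2 residual and 4.42 prior degrees of freedom. It was also run on simulated data that used the same 4.42 prior degrees of freedom and gave every array equal spread. The arrays here differed in spread, so that run does not show how the fit performs on them. Replicate numbers did not pair the arrays by the labels, and the deviations of same-numbered arrays correlated at −0.238 over genes.

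The genes described and the related lists were chosen with earlier results of these data known. Further genes were named by smallest p, at most 4 per list and 2 per set of cell markers, except *Sftpc* as the tissue check and *Lrp1*, picked once its values were known. *Wt1*, *Upk3b* and *Pf4* were added to show markers that hardly differed. The lists held 25 relay, 16 pericyte, 14 lipofibroblast, 11 alveolar fibroblast and 11 alveolar myofibroblast genes, of which 3 were not analysed here.

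Alternatives were arrays centred on their medians, cyclic loess, omission of the dimmest 40% of genes, averaging each gene's probe sets, an eBayes trend with robust fitting, the replicate block, an adjusted p threshold of 0.10 and each array left out. A block with crossed numbers was added after seeing the data. Promoters were read from RefSeq on GRCm38.p6. Figures were drawn with matplotlib 3.10.9.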

Additional observations from a re-analysis of the deposited data

How the results depend on the processing

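Genes called over the whole table numbered 156, of which 10.3% were higher in the arrays labelled KO. The count was 294 with arrays centred on their medians (24.8% higher), 350 with cyclic loess (22.9% higher), 301 without the dimmest 40% of genes, 602 with the replicate block, 512 with the crossed block, 457 at an adjusted p of 0.10, and 0 to 6292 with 1 array left out, the highest without WT replicate 2. Of the 10 genes none was called, against 1 (*Higd1b*) without the dimmest genes, with the replicate block and at 0.10, and 0 to 5 with 1 array left out (4 without WT replicate 1, 5 without WT replicate 2). The pericyte list had 1 call (*Trpc6*) in place of 0, and the lipofibroblast list 2 (*Fabp5* and *Lpl*) in place of 1, under centring, cyclic loess, omission of the dimmest genes, the replicate block, the crossed block and 0.10. With 1 array left out the calls ran from 0 to 7 in the relay list, 0 to 4 in the pericyte list, 0 to 6 in the lipofibroblast list, 0 to 4 in the alveolar fibroblast list and 0 to 4 in the alveolar myofibroblast list. A fit without a WT array takes its spread from the KO arrays alone, which lay closer together. Besides the calls of *Higd1b*, *Trpc6* and *Lpl* given above, the replicate block added calls for the cell markers *Top2a*, *Ptprc* and *Myl7*. *Pdgfra* turned from 0.0072 to −0.041 with cyclic loess and ran from −0.08 to 0.094 with 1 array left out. *Hmga2* turned from 0.05 to −0.0058 with cyclic loess and ran from −0.076 to 0.18 with 1 array left out. The cause of these changes was not tested.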

Other observations

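Of 5 erythroid markers 2 were measured, and only *Alas2* was separate between groups. *Epb42* overlapped at −0.05, about the median difference over all genes. *Alas2*, the erythroid enzyme that starts heme synthesis, read 11.55 and 11.52 in WT and 10.93 and 10.82 in the arrays labelled KO (−0.66 ± 0.13, SE, limma adjusted p = 0.0873). *Ptprc*, the CD45 antigen of leukocytes, read 8.54 and 8.36 in WT and 7.82 and 7.26 in the arrays labelled KO (−0.91 ± 0.20). *Myl7*, an atrial myosin light chain, read 10.16 and 10.22 in WT and 11.12 and 10.99 in the arrays labelled KO (0.87 ± 0.13). The adjusted p of *Ptprc* was 0.122 and that of *Myl7* 0.0515. With the replicate block these were 0.0262 and 0.0284, and *Myl7* also passed 0.05 under cyclic loess (0.0334), with centred arrays (0.0387), without the dimmest 40% of genes (0.0333), with the eBayes trend and robust fitting (0.0466) and with the crossed block (0.0373).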
